A study of Homo sapiens with 6 samples.

Results

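The data describe 42 genes of the G2 phase and of mitosis (G2/M) in 12Z cells, from the kinases that start division to the proteins of the kinetochore, the spindle and the cleavage furrow. They were taken by symbol from a list of such genes. All 42 were among the 16279 genes of the deposited tables, and all 42 were among the 13311 genes that passed the filter on low counts, with 604 to 38825 counts per gene and library. The 12Z line is an established line of human epithelial cells from endometriosis. Control cells were left untreated, and the other group received 10 ng/mL of recombinant human chemerin (Glu21 to Ser157, rhChem157S), an adipokine, for 48 h in the same serum-containing medium. Each group holds 3 libraries that are labelled as biological replicates of this one line, and whether they were grown on separate days is not given in the sources used here, so that p-values measure the spread between these libraries. Total counts ran from 35430881 to 38341643 per library. The marker genes fit the epithelial label in part. In TMM-scaled FPKM, a level corrected for gene length and library composition, the keratin KRT8 stood at 710.0 to 869.6 in Control and 897 to 1017 in rhChem157S. EPCAM and CDH1, which encode epithelial adhesion proteins, were low in every library, with 0.367 to 0.771 in Control and 0.128 to 0.308 in rhChem157S for EPCAM and 0.225 to 0.368 in Control and 0.0883 to 0.201 in rhChem157S for CDH1. COL1A1, a collagen of stromal cells, was at 903 to 1065 in Control and 811 to 1166 in rhChem157S. PTPRC, which marks leukocytes, was at or below 0.0516 FPKM in every library. Other leukocyte markers lay on both sides, with LYZ at or below 0.409 in every library. CD68 was at 67.55 to 128.5 in Control and 80.2 to 124.2 in rhChem157S. CD14 was at 35.3 to 49.7 in Control and 7.39 to 21.2 in rhChem157S.

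The cell enters mitosis when cyclin B and CDK1 form an active kinase, which the phosphatases of the CDC25 family switch on and which the kinases PLK1 and AURKA help to activate. Chromosomes then attach through their kinetochores to the spindle, a checkpoint holds the cell until the last one is attached, and CDC20 with the anaphase-promoting complex (APC/C) removes cyclin B and securin so that sister chromatids part. Transcripts of these genes accumulate together in G2 and mitosis, under the factors FOXM1, MYBL2 and the MuvB complex, and are low in cells that do not divide. In bulk RNA, a larger share of cells in G2/M and more of these transcripts in each such cell cannot be told apart.

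The 42 genes stood slightly higher in rhChem157S-treated cells, almost without exception. The fitted log2 fold change was above 0 for 41 of them, with CDC25B at -0.02, and their median was 0.31 (lowest -0.02, highest 0.68). Over all genes tested the median was 0.01 and 51.7% were higher. In 28 of the 42 every rhChem157S library was above every Control library, against 16.5% of all genes tested, and in 0 of the 42 was it the other way round. These values were scaled with TMM, the trimmed mean of M-values. Scaled by library size alone, which moves the median of all genes to -0.12, the members' median was 0.19, with 36 higher and 6 lower, and 17 of 42 were apart and higher, against 7.35% of all genes. The members' median exceeded that of all genes by 0.30 with TMM and by 0.31 with library size alone.

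No single gene of the 42 passed the main test. By edgeR's quasi-likelihood test and Benjamini-Hochberg adjustment over 13311 genes, 0 of the 42 had an adjusted p under 0.05, against 0.0301% of all genes tested. The smallest edgeR adjusted p among them was 0.0707. Without adjustment 28 of the 42 had a p under 0.05 and all 28 were higher, against 11.4% of all genes that passed this mark and were higher. DESeq2, the tool of the study, gave 20 of the 42 an adjusted p under 0.05, all 20 of them higher, against 3.9% of the genes for which it gave an adjusted p. The study also required an absolute log2 fold change above 1. The largest DESeq2 value among the 42 was 0.68, for HMMR. The edgeR count depended on the libraries. Without rhChem157S replicate 3, 11 of the 42 had an adjusted p under 0.05, against 1.19% of all genes called and higher. Without rhChem157S replicate 1 it was 6 of 42, against 2.58%. CCNA2, HMMR, INCENP, MKI67 and TTK were among the calls in both. Without rhChem157S replicate 2, or without Control replicate 1, 2 or 3, edgeR called 0 of the 42 and 0 of all genes tested.

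**Figure D1:**
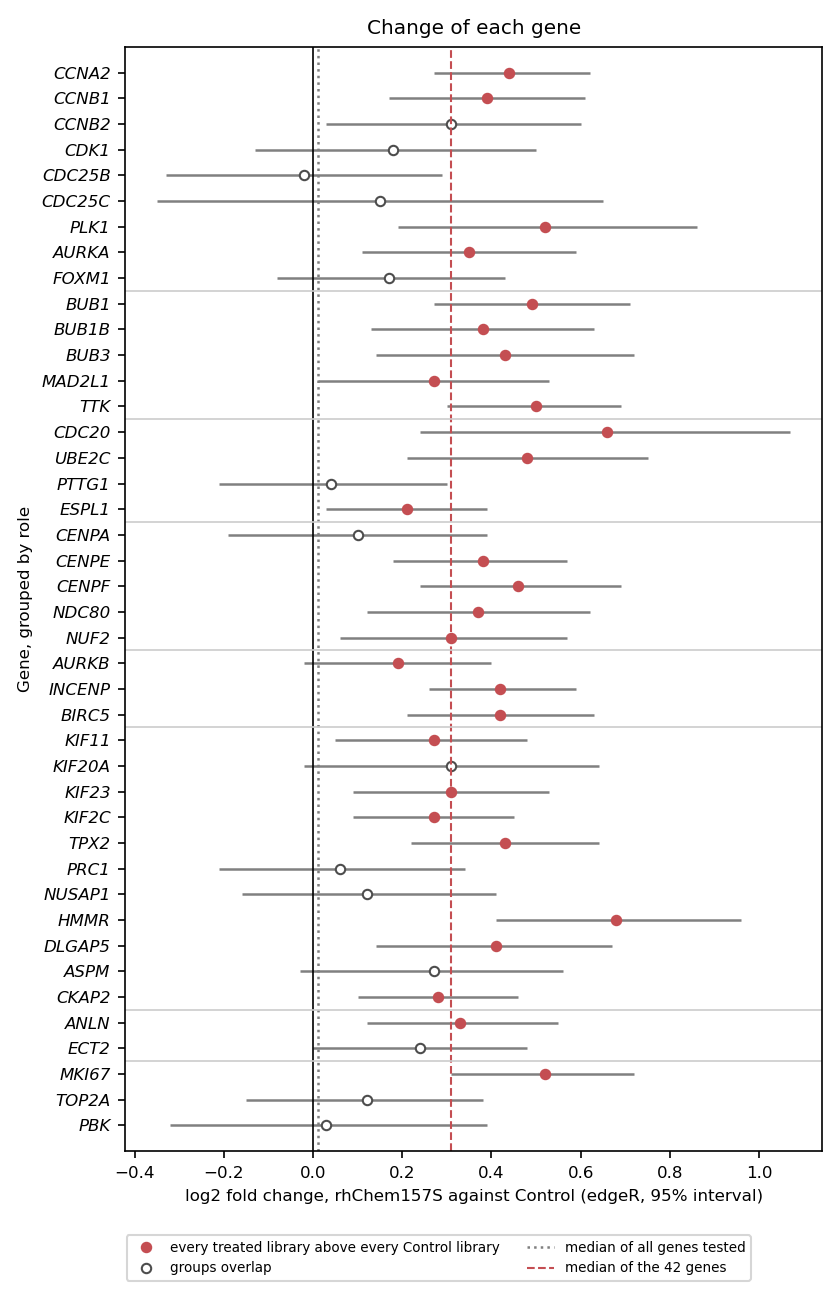
Fitted log2 fold change of each of the 42 genes, rhChem157S against Control, with its 95% interval from edgeR (horizontal axis), in rows ordered by role. Filled points mark the 28 genes with every treated library above every Control library and open points the 14 genes whose groups overlap, and the dashed and dotted lines mark the medians of the 42 genes (0.31) and of all genes tested (0.01).

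Across all genes tested, abundant genes were on the whole higher with rhChem157S than scarce ones. Genes with a mean of 0 to 1 log2 CPM (counts scaled to the library total) differed by a median of -0.40 on the log2 scale, and those of 8 to 9 log2 CPM by a median of 0.19. The lower and upper quartiles of the 42 genes lay at 6.66 and 7.92 log2 CPM. The 1732 tested genes in that range stood at a median log2 fold change of 0.10, 68.3% of them were higher, and 28.6% had every rhChem157S library above every Control library. The members' median of 0.31 was thus set against 0.10 rather than 0.01 at like abundance. Of the 42 genes, 35 exceeded the median of all tested genes in their own bin of 1 log2 CPM unit and 28 exceeded its upper quartile. With a smooth trend of fold change on abundance removed from all genes, the members' median was 0.23.

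**Figure D2:**
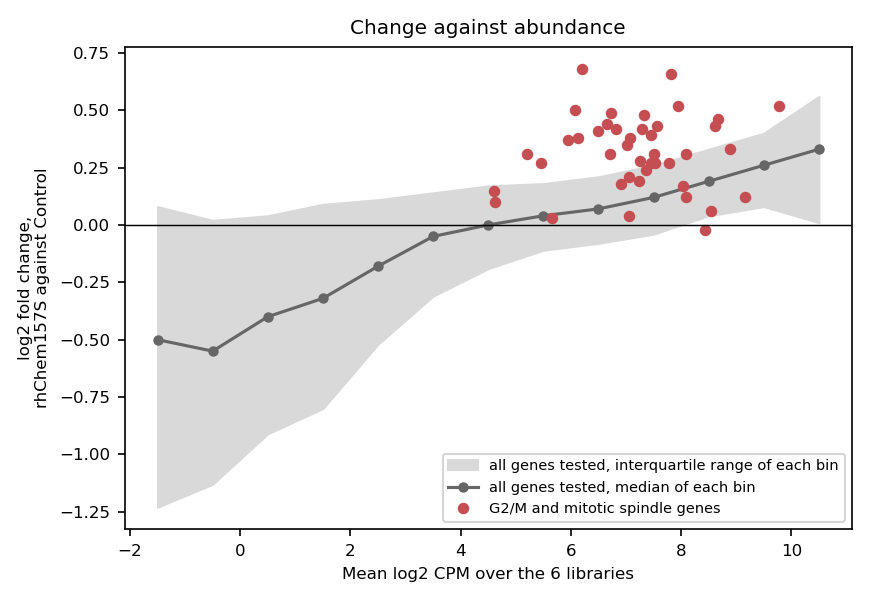
Log2 fold change, rhChem157S against Control (vertical axis), against mean log2 CPM over the 6 libraries (horizontal axis) for the 42 genes (red points). The grey line and band give the median and the interquartile range of all genes tested in bins of 1 log2 CPM unit, and 35 of the 42 points lie above the median of their bin.

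The start regions of many of these genes carry a shared pattern of letters. It is read from the reference sequence and holds no measurement of the treated cells. Its part in the differences with rhChem157S was not tested. RefSeq windows of 300 bases (250 before the transcript start to 50 after it, GRCh38.p14) were at hand for 34 of the 42 genes. The cell cycle genes homology region (CHR), searched as TTTGAA or TTTAAA on both strands, was in 28 of the 34 windows (82.4%), against 24.0% of all 35116 windows. The CCAAT box, searched as CCAAT on both strands, was in 25 of 34 (73.5%), against 34.6% of all. Both were in 22 of 34 (64.7%), against 9.27% of all. The E2F-like letters GGCGG were in 34 of 34, against 59.0% of all windows, and can share 2 bases with a CCAAT box read on the other strand. The 110 bases before the start are printed for 6 genes, 5′ to 3′ on the gene's strand, with CHR and CCAAT letters of either strand in capitals. HMMR at chr5:163460522-163460631 (plus strand) had the largest fold change of the 42. CCNB1 at chr5:69167040-69167149 (plus strand), PLK1 at chr16:23678779-23678888 (plus strand) and KIF11 at chr10:92593020-92593129 (plus strand) also had groups apart, whereas PTTG1 at chr5:160421745-160421854 (plus strand) and PRC1 at chr15:90994536-90994645 (minus strand) had groups that overlapped.
HMMR: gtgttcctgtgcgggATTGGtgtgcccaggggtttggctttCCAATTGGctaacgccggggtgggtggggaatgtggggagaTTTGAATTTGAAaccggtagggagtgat
CCNB1: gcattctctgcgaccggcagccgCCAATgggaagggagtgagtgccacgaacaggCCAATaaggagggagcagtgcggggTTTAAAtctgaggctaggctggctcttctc
PLK1: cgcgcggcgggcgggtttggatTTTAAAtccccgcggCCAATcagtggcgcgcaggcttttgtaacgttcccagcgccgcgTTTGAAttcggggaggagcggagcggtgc
KIF11: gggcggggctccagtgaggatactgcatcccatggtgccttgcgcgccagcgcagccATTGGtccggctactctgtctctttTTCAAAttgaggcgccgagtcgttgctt
PTTG1: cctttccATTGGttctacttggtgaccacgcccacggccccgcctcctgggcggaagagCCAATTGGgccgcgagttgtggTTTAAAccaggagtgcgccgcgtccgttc
PRC1: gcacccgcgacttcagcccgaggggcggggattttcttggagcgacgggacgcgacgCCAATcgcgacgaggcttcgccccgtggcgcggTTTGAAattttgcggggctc
In each of the 6 a CHR lies between a CCAAT box and the start. These 6 were chosen, and all are among the 22 of 34 windows that hold both. CCNA2 and BUB1, for example, had no CHR match, and BUB1B and ANLN no CCAAT box. A CHR was in 18 of 22 windows of genes with groups apart and in 10 of 12 windows of genes with overlapping groups, and a CCAAT box was in 15 of 22 and in 10 of 12. A match is a description of these letters and not of a factor bound there.

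Levels are given from here on as FPKM rescaled with the TMM factors, so that they can be compared between genes as well as between libraries. By their mean over the 6 libraries the 42 genes ran from 138 for PTTG1, followed by CDC20 at 137, UBE2C at 130 and PRC1 at 121, down to 8.4 for MAD2L1 and 8.22 for CENPE. Summed over the 42, the level was 2281, 2010 and 2044 in Control libraries 1 to 3 and 2656, 2603 and 2580 in rhChem157S libraries 1 to 3. Without the 3 most abundant members it was 1895, 1684 and 1703 against 2221, 2172 and 2068. With this scaling the treated libraries were above the Control libraries in both sums. The TMM factors were 0.898 in treated replicate 3 and 1.037 in Control replicate 1. With the factors undone, treated replicate 3 would lie below Control replicate 1 in both sums.

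Among the cyclins, kinases and activators of mitotic entry, 8 of 9 were higher, the median log2 fold change was 0.31, and in 4 of 9 the groups were apart. In the members' abundance range 68.3% of genes were higher and 28.6% were apart and higher. CCNA2, the cyclin of S phase and G2, at chr4:121816444-121823933, had 32.2, 29.7 and 31.1 in Control libraries 1 to 3 and 43.1, 42.2 and 41 in rhChem157S libraries 1 to 3. The treated values lay close together and clear of the Control values (log2 fold change 0.44, standard error 0.07, edgeR adjusted p = 0.0707). For CCNB1, the cyclin that drives entry into mitosis, the levels were 78.4, 71.8 and 73.3 in Control against 101, 87.4 and 104 with rhChem157S, again without overlap (log2 fold change 0.39, standard error 0.09). PLK1, a kinase of centrosome maturation and mitotic entry, stood at 107, 86.9 and 88.6 in Control against 122, 122 and 162 with rhChem157S. Replicate 3 was the highest treated library and the log2 fold change was 0.52 (standard error 0.14, edgeR adjusted p = 0.119). PLK1 shares 12.5% of its exon bases with exons on the opposite strand, and the strand setting of the counts is not stated. AURKA, a kinase of the spindle poles, ranged from 34.9 to 41.1 in Control and 46.6 to 54.2 in rhChem157S (log2 fold change 0.35).

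The partner of these cyclins did not follow them in every library. CDK1, the catalytic kinase, had 34.7, 31.6 and 32.5 in Control libraries 1 to 3 and 39.6, 42.6 and 29.9 in rhChem157S libraries 1 to 3, so that the first 2 treated libraries were above all Control libraries and the last was below them. Its log2 fold change was 0.18 with a 95% interval of -0.13 to 0.50. It was 0.07 without rhChem157S replicate 2, 0.32 without rhChem157S replicate 3 and 0.06 with library size alone. CCNB2, the other B-type cyclin, was at 70.3, 59.1 and 57.3 in Control against 82.6, 82.2 and 66.8 with rhChem157S, with treated replicate 3 within the Control range. The phosphatases that activate CDK1 differed little. CDC25B was at 86.2 to 110.2 in Control and 86.1 to 109 in rhChem157S (log2 fold change -0.02, interval -0.33 to 0.29) and CDC25C at 9.83 to 13.1 in Control and 9.11 to 15 in rhChem157S (0.15, interval -0.35 to 0.65). With one library left out CDC25C ran from 0.03 to 0.35, the highest without rhChem157S replicate 3, and with limma on log2(FPKM + 0.1) it was at -0.01. FOXM1, the transcription factor of this gene program, was at 60.1 to 69.7 in Control and 68.3 to 83.9 in rhChem157S, with overlapping groups and a log2 fold change of 0.17 (interval -0.08 to 0.43). That value was 0.08 without rhChem157S replicate 3, 0.11 without Control replicate 2 and 0.04 with library size alone. FOXM1 shares 15.9% of its exon bases with the opposite strand.

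In the spindle assembly checkpoint the groups were apart throughout with TMM scaling. In 5 of 5 genes every treated library was above every Control library, and the median log2 fold change was 0.43. The like share was 16.5% of all genes tested and 28.6% in the members' abundance range. With the TMM factors undone, treated replicate 3 would lie below Control replicate 1 in BUB1B and below every Control library in MAD2L1. TTK, also named MPS1, the kinase at the head of the checkpoint, had 16.5, 15.6 and 15.1 in Control libraries 1 to 3 and 23.2, 21.9 and 21.4 in rhChem157S libraries 1 to 3, or 15.7 ± 0.737 (SD, n = 3) in Control and 22.2 ± 0.975 (SD, n = 3) with rhChem157S. The lowest treated library was well above the highest Control library (log2 fold change 0.50, standard error 0.08, edgeR adjusted p = 0.0707, DESeq2 adjusted p = 1.43e-04). BUB1, a kinase at the kinetochore, was at 24.3, 23.4 and 22.4 in Control against 32.7, 36.2 and 29.7 with rhChem157S (log2 fold change 0.49, standard error 0.10, edgeR adjusted p = 0.0752). Its relative BUB1B, which encodes BUBR1 of the inhibitory complex, stood at 29.6 to 35.8 in Control and 38.1 to 45.4 in rhChem157S, and BUB3, the partner that carries both to the kinetochore, at 19.6 to 21.7 in Control and 23.7 to 32.4 in rhChem157S. Their log2 fold changes were 0.38 and 0.43. MAD2L1, which binds CDC20 while the checkpoint is on, had the smallest difference of the 5. Its levels were 7.51, 7.92 and 7.41 in Control against 10.1, 9.52 and 7.94 with rhChem157S, so that treated replicate 3 was only just above the highest Control library (0.27, interval 0.01 to 0.53).

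Of the 4 genes of anaphase 4 were higher and 3 had groups apart, against 28.6% of genes in the members' abundance range. Their median log2 fold change was 0.35. CDC20, the activator of the APC/C, was at 117, 102 and 100.0 in Control libraries 1 to 3 and 144, 141 and 218 in rhChem157S libraries 1 to 3. All treated libraries were higher, and replicate 3 stood apart from the other two, and the standard deviation was 9.14 in Control and 43.5 with rhChem157S (log2 fold change 0.66, standard error 0.18, edgeR adjusted p = 0.119). Without that library its log2 fold change was 0.42. UBE2C, the ubiquitin-conjugating enzyme of the APC/C, also had replicate 3 as its highest treated library, with 122, 98.7 and 106 in Control against 144, 141 and 171 with rhChem157S (log2 fold change 0.48, standard error 0.12). PTTG1, which encodes securin, the substrate whose loss frees separase, had 147, 125 and 134 in Control against 148, 149 and 123 with rhChem157S. Its groups overlapped and its log2 fold change was 0.04 (interval -0.21 to 0.30), or -0.08 with library size alone. PTTG1 has near-identical copies elsewhere in the genome, and how reads shared between copies were counted is not stated. ESPL1, which encodes separase itself, was at 17.4 to 19.3 in Control and 20.7 to 21.3 in rhChem157S, a small difference with groups apart (0.21, standard error 0.08).

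At the centromere and kinetochore, 5 of 5 genes were higher and 4 of 5 had groups apart, with a median log2 fold change of 0.37. Among genes in the members' abundance range, 28.6% were apart and higher. CENPF, a large protein of the outer kinetochore that accumulates in G2, was at 37.8, 33.5 and 31.4 in Control libraries 1 to 3 and 46.7, 49 and 45.9 in rhChem157S libraries 1 to 3 (log2 fold change 0.46, standard error 0.10, edgeR adjusted p = 0.0824). CENPE, the kinesin that moves chromosomes to the middle of the spindle, was the least abundant member, at 7.69, 6.96 and 6.81 in Control against 9.34, 9.43 and 9.11 with rhChem157S, and still had groups apart (log2 fold change 0.38, standard error 0.08). NDC80 and NUF2, which together grip the microtubule, were at 23.9 to 27.2 in Control and 28.9 to 35.4 in rhChem157S for NDC80 and 14 to 16.9 in Control and 17.5 to 20.0 in rhChem157S for NUF2. Their log2 fold changes were 0.37 and 0.31, and in both the lowest treated library was replicate 3. CENPA, the histone H3 variant that marks the centromere, differed least. It stood at 19.5, 15.3 and 16.9 in Control against 18.4, 19.9 and 17.1 with rhChem157S, with Control replicate 1 above 2 of the treated libraries (0.10, interval -0.19 to 0.39, or -0.02 with library size alone). With one library left out CENPA ran from 0.02 without Control replicate 2 to 0.20 without Control replicate 1.

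The chromosomal passenger complex, which corrects faulty attachments, had groups apart in 3 of 3 genes with TMM scaling. By the same scaling 16.5% of all genes tested and 28.6% in the members' abundance range were apart and higher. INCENP, its scaffold, at chr11:62123973-62153163, was at 21.4, 20.3 and 20.2 in Control libraries 1 to 3 and 27.3, 27.5 and 28.2 in rhChem157S libraries 1 to 3. The treated libraries were nearly equal (log2 fold change 0.42, standard error 0.07, edgeR adjusted p = 0.0707). BIRC5, or survivin, which carries the complex to the centromere, was at 39.3, 33.4 and 36.8 in Control against 47.5, 47.3 and 52 with rhChem157S (log2 fold change 0.42, edgeR adjusted p = 0.0892). AURKB, the kinase of the complex, showed a smaller difference, 88.8 to 103 in Control and 104 to 115 in rhChem157S. Its treated replicate 3 was just above the highest Control library (log2 fold change 0.19, interval -0.02 to 0.40, or 0.06 with library size alone). With the TMM factors undone, that library would lie below Control replicate 1.

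The motors and microtubule binders of the spindle were 11 of 11 higher, 7 of them with groups apart, with a median log2 fold change of 0.28. The share apart and higher in the members' abundance range was 28.6%. HMMR, a spindle protein that is also a receptor for hyaluronan, at chr5:163460203-163491945, had the largest difference of the 42, 19.1, 17.2 and 19.9 in Control libraries 1 to 3 and 31.7, 32.7 and 25.9 in rhChem157S libraries 1 to 3 (log2 fold change 0.68, standard error 0.12, edgeR adjusted p = 0.0707, DESeq2 adjusted p = 1.37e-04). Even its lowest treated library, replicate 3, was above the highest Control library. TPX2, which brings AURKA to the spindle, was at 103, 89.7 and 91.5 in Control against 126, 124 and 133 with rhChem157S (0.43, standard error 0.09). DLGAP5, which stabilises kinetochore fibres, was at 20.9 to 27.2 in Control and 30.2 to 33.3 in rhChem157S (0.41). Of the kinesins, KIF11, which pushes the poles apart, was at 30.2 to 33.5 in Control and 34.6 to 41.2 in rhChem157S, KIF23 of the central spindle at 39.4 to 47.9 in Control and 51.3 to 54.8 in rhChem157S, and KIF2C, which shortens microtubules at the centromere, at 47.9 to 48.6 in Control and 54.4 to 60.0 in rhChem157S. Their log2 fold changes were 0.27, 0.31 and 0.27, with groups apart in each. The fourth kinesin, KIF20A, which acts late in division, had 88.9, 74.1 and 71.8 in Control against 113, 96.4 and 82.1 with rhChem157S, and its groups overlapped (0.31, interval -0.02 to 0.64, or 0.18 without rhChem157S replicate 1). CKAP2, a microtubule-associated protein, was at 34.6 to 37 in Control and 40.8 to 45.2 in rhChem157S with groups apart (0.28), and ASPM, a protein of the spindle poles, at 16.2 to 20.8 in Control and 19.3 to 24 in rhChem157S with overlap (0.27).

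PRC1 and NUSAP1 differed from their neighbours in this role. PRC1, which bundles the microtubules of the central spindle, was at 128, 118 and 109 in Control libraries 1 to 3 and 137, 127 and 108 in rhChem157S libraries 1 to 3, with overlapping groups (0.06, interval -0.21 to 0.34, or -0.06 with library size alone). NUSAP1, which binds and bundles spindle microtubules, was at 85.9, 80.1 and 79.2 in Control against 96.2, 97.5 and 73.5 with rhChem157S. Its first 2 treated libraries were the highest of all and its last the lowest (0.12, interval -0.16 to 0.41, or -0.02 with limma on log2(FPKM + 1)). With one library left out it ran from 0.05 without rhChem157S replicate 2 to 0.24 without rhChem157S replicate 3. In cytokinesis, ANLN, which organises the contractile ring, was at 90.3, 81 and 88.5 in Control against 108, 116 and 104 with rhChem157S, with groups apart (0.33, standard error 0.09). ECT2, the activator of RhoA at the furrow, was at 26.2 to 30.6 in Control and 30.1 to 35.8 in rhChem157S, where treated replicate 3 lay below Control replicate 1 (0.24, interval -0.00 to 0.48).

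Of the 3 chromatin and proliferation markers, MKI67 had groups apart and the others overlapped. This was 1 of 3, against 28.6% of genes in the members' abundance range. The median log2 fold change of the 3 was 0.12. MKI67, the gene of the Ki-67 antigen, at chr10:128096659-128126385, was at 57.1, 52.9 and 53.5 in Control libraries 1 to 3 and 76.6, 80.6 and 77.1 in rhChem157S libraries 1 to 3, or 54.5 ± 2.29 (SD, n = 3) in Control and 78.1 ± 2.18 (SD, n = 3) with rhChem157S. It has the most counts of the 42 and a gap between groups that is wide against the spread within them (log2 fold change 0.52, standard error 0.09, edgeR adjusted p = 0.0707). DESeq2 gave it an adjusted p of 1.36e-06, the smallest of the 42. TOP2A, the topoisomerase that untangles chromosomes, had 97.4, 93.2 and 90.3 in Control against 109, 109 and 86.4 with rhChem157S. The first 2 treated libraries were above the Control range and the last was below it (0.12, interval -0.15 to 0.38, or -0.01 with library size alone). Its fold change was 0.05 without rhChem157S replicate 1 and 0.22 without rhChem157S replicate 3. PBK, a mitotic kinase, likewise had its first 2 treated libraries above the Control range and its last below it, with 27.5, 26.7 and 27 in Control against 31.2, 30.6 and 21.2 with rhChem157S (0.03, interval -0.32 to 0.39, or -0.09 with library size alone).

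**Figure D3:**
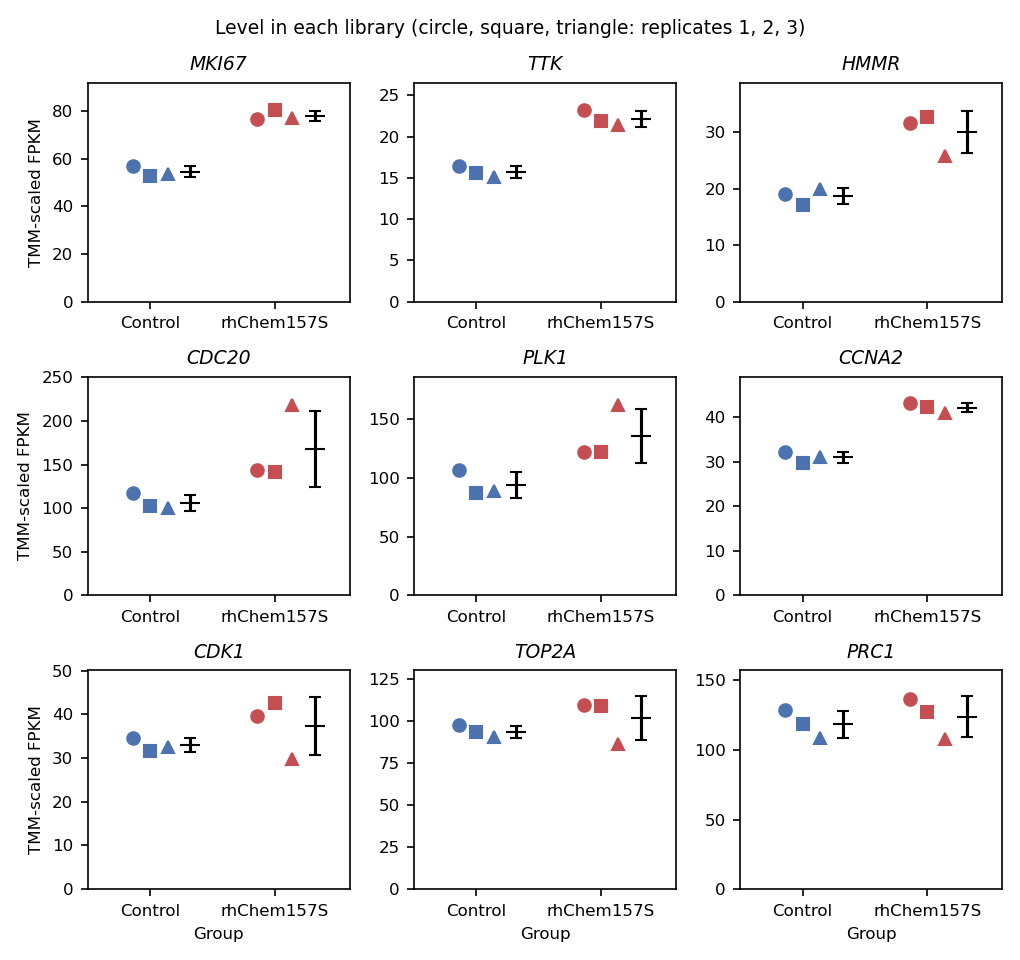
TMM-scaled FPKM (vertical axes, from 0) of 9 genes in the 3 Control libraries (blue) and the 3 rhChem157S libraries (red), with circles, squares and triangles for replicates 1, 2 and 3 and black bars for mean ± SD (n = 3). In MKI67, TTK, HMMR, CDC20, PLK1 and CCNA2 the groups are apart, whereas in CDK1, TOP2A and PRC1 treated replicate 3 is the lowest of all 6 libraries.

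Treated replicate 3 divided the 42 genes. It was the highest of all 6 libraries in 11 genes, namely CCNB1, PLK1, AURKA, FOXM1, BUB3, CDC20, UBE2C, INCENP, BIRC5, KIF23 and TPX2. It was the lowest of all 6 in 8 genes, namely CDK1, CDC25B, CDC25C, PTTG1, PRC1, NUSAP1, TOP2A and PBK. Neither of the other treated libraries was the lowest in any of the 42. The median distance from the Control mean, in log2 CPM, was 0.38, 0.37 and 0.26 in rhChem157S libraries 1 to 3 and 0.10, -0.06 and -0.04 in Control libraries 1 to 3. Members above the Control mean numbered 42, 41 and 33 in the treated libraries and 40, 5 and 9 in the Control libraries, so that Control replicate 1 was the nearest of its group to the treated cells. Treated replicate 3 also had the lowest TMM factor. The factors were 1.037, 1.054 and 1.047 in Control libraries 1 to 3 and 1, 0.973 and 0.898 in rhChem157S libraries 1 to 3. A factor scales every gene of a library alike. Its part in the number of genes that were highest or lowest was not tested. These sets of genes were named after their values were seen and are a description. Without treated replicate 3, 38 of the 42 genes had both remaining treated libraries above every Control library, against 22.0% of all genes tested in the same way, and all 42 were higher.

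**Figure D4:**
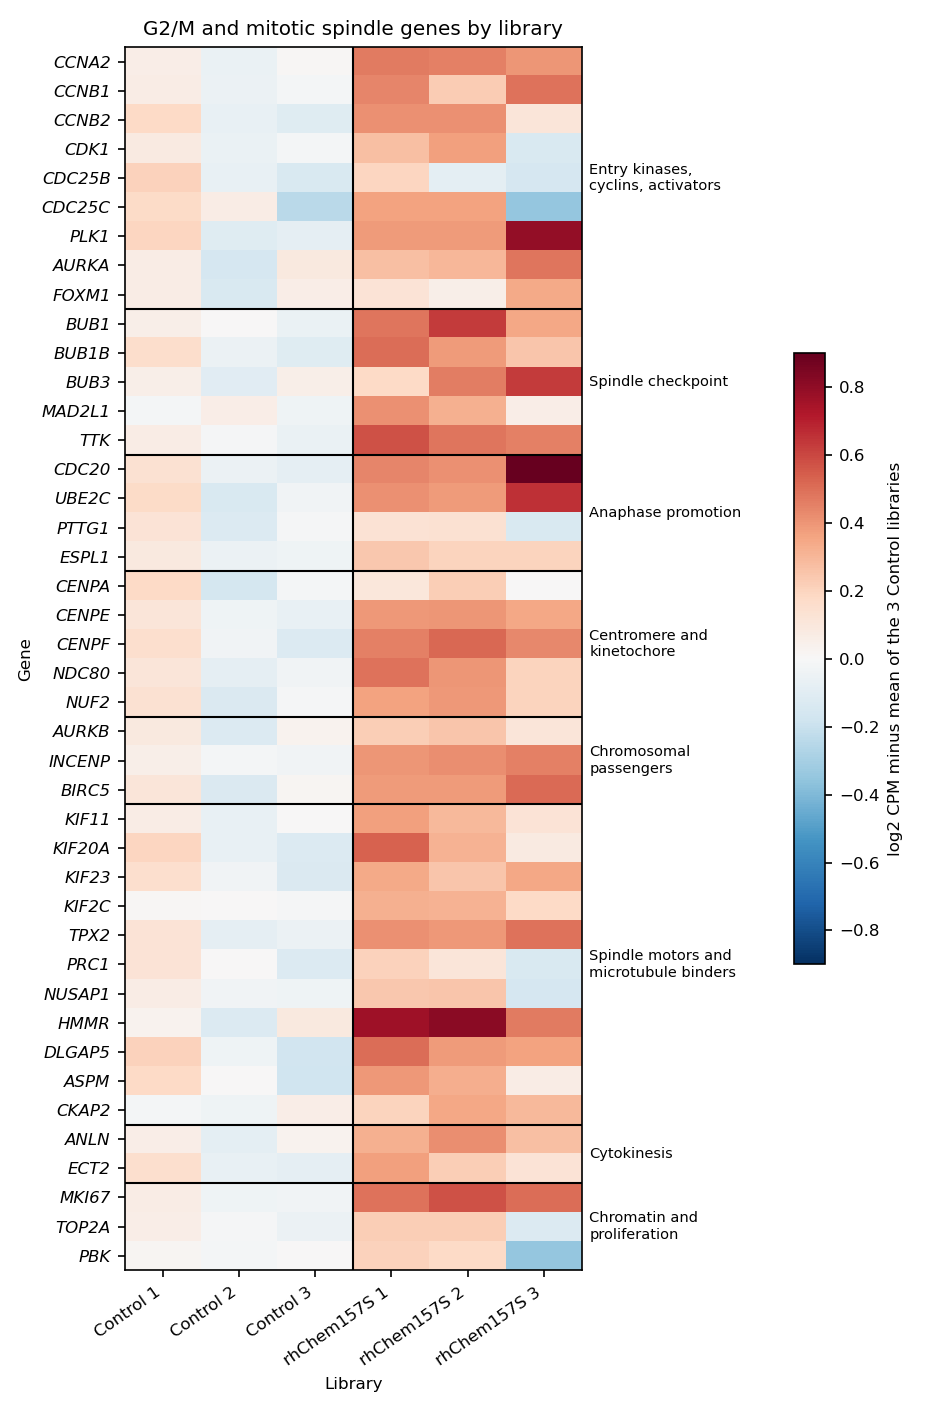
Difference of log2 CPM from the mean of the 3 Control libraries (colour, blue lower and red higher) for each of the 42 genes (rows, grouped by role) in each library (columns). Treated replicates 1 and 2 are red in nearly every row, and treated replicate 3 is the reddest in CDC20 and PLK1 and blue in CDK1, CDC25C, TOP2A and PBK.

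Other genes of the same machinery were counted from lists by complex. Over all genes tested 16.5% had every treated library above every Control library, and 28.6% in the members' abundance range. DESeq2 called 3.9% of the genes for which it gave an adjusted p as higher. Of 25 further spindle and cytokinesis genes, 25 were higher, 19 had groups apart, the median log2 fold change was 0.31 and 0 passed edgeR's test. The smallest p were those of the kinesins KIF4A, which acts on chromosome arms and the central spindle, at 19.3 to 21.8 in Control and 28.4 to 29.6 in rhChem157S (0.50, edgeR adjusted p = 0.0707), and KIFC1, which clusters spindle poles, at 48 to 52.8 in Control and 67 to 70.3 in rhChem157S (0.46, edgeR adjusted p = 0.0707). DESeq2 called 10 of the 25, all higher. Condensin and cohesin, which fold and hold the chromosomes, had 19 of 19 genes higher and 13 apart, with a median of 0.23. Their smallest p were those of NCAPG, a condensin subunit, at 0.41, and of STAG1, a cohesin subunit, at 0.58. Of 32 further centromere and kinetochore genes, 25 were higher and 7 lower, with a median of 0.15. Of these 10 were apart and higher, or 10 of 32 against 28.6% of genes in the members' abundance range, and 1, CENPX, was apart and lower. SPC25, which anchors NDC80, was at 9.28 to 9.37 in Control and 12.9 to 14.4 in rhChem157S (0.57), and ZW10, a checkpoint protein, at 8.44 to 8.96 in Control and 12.1 to 14.1 in rhChem157S (0.54). Both had an edgeR adjusted p of 0.0752.

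Of the lists of the ubiquitin ligase and of the regulators of the program, 0 genes passed edgeR's test, and their difference from the other lists was not tested. DESeq2 called 1 gene of each, ANAPC15 higher and E2F1 lower, where 3.9% of the genes with an adjusted p were called and higher. Among the 13311 genes tested with edgeR, DESeq2 called 541 higher and 755 lower. Of 17 genes of APC/C subunits and partners, 15 were higher, with a median of 0.13. In 5 of 17 the groups were apart and higher, against 28.6% of genes in the members' abundance range. ANAPC15, a small subunit, was at 3.83 to 4.92 in Control and 6.35 to 6.92 in rhChem157S (0.54), and FBXO5, an inhibitor of the APC/C, at 28.1 to 31.3 in Control and 35.6 to 37.9 in rhChem157S (0.29). Of 19 genes of the MuvB and DREAM complexes and the E2F family, 12 were higher and 7 lower, with a median of 0.06. In 5 the groups were apart and higher, against 28.6% of genes in the members' abundance range. In 2 they were apart and lower, against 156 of 1732 genes in that range. MYBL2 was among the 5, at 180.0 to 200.2 in Control and 212.5 to 223.5 in rhChem157S (0.20, interval -0.00 to 0.40). RBL1 (0.41) was another. The smallest p belonged to 2 genes that were lower. E2F1, an activator of G1/S genes, was at 47.6, 47.1 and 46.9 in Control against 37.9, 39.6 and 34.2 with rhChem157S (-0.34, edgeR adjusted p = 0.103), and E2F5 at 3.43 to 4.35 in Control and 2.40 to 2.81 in rhChem157S (-0.53). In both the groups were apart.

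Genes of the step before, G1/S and DNA replication, were counted in the same way. Of 30, 24 were higher and 6 lower. In 14 every treated library was above every Control library, against 16.5% of all genes tested, and in 1 (CDC6) every one was below. The median log2 fold change was 0.13, against 0.31 for the 42 mitotic genes. All tested genes in the middle abundance range of those 42 stood at 0.10, with 28.6% apart and higher. No abundance range was matched to the G1/S list. RRM2, a subunit of ribonucleotide reductase, was at 75.2 to 77.9 in Control and 89.5 to 109.7 in rhChem157S (0.38), and POLA1, of the polymerase that starts DNA strands, at 6.64 to 7.73 in Control and 8.62 to 10.2 in rhChem157S (0.41). DESeq2 called 3 of the 30, all higher, against 3.9% of the genes for which it gave an adjusted p, and edgeR 0. The difference between the 2 lists was not tested. Of 10 genes that restrain entry into mitosis, 5 were higher and 5 lower. In 2, CDKN1A and SFN, the groups were apart and lower, against 2131 of all 13311 genes tested. CDKN1A, which encodes the CDK inhibitor p21, was at 177, 328 and 195 in Control libraries 1 to 3 and 96, 112 and 109.6 in rhChem157S libraries 1 to 3, with each treated library below each Control library (log2 fold change -1.14, standard error 0.23, edgeR adjusted p = 0.0774, DESeq2 adjusted p = 8.96e-05). SFN, or 14-3-3 sigma, which holds CDK1 outside the nucleus, was low throughout, with at most 193 counts in a library, at 2.79, 3.81 and 2.98 in Control against 1.38, 1.19 and 0.364 with rhChem157S, with groups apart (-1.70, standard error 0.47, edgeR adjusted p = 0.119).

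**Figure D5:**
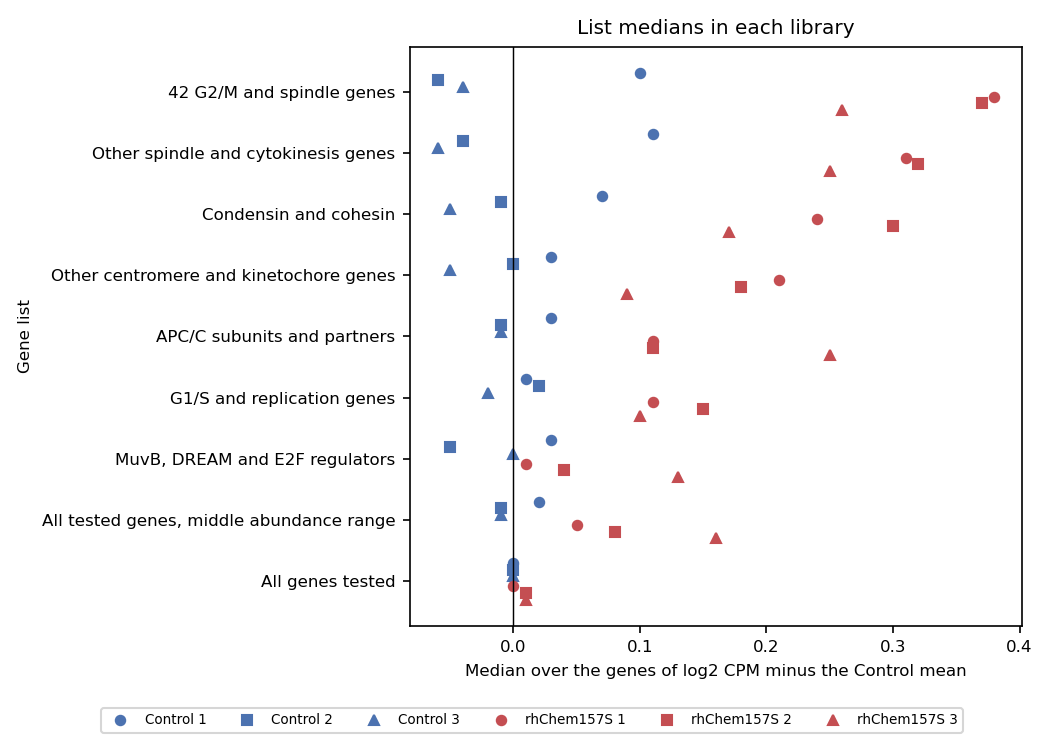
Median over the genes of each list of log2 CPM minus the Control mean (horizontal axis) in each library (blue Control, red rhChem157S, with circles, squares and triangles for replicates 1, 2 and 3). The 42 genes reach 0.26 to 0.38 in the treated libraries, above the -0.06 to 0.10 of the Control libraries, and all tested genes of like abundance reach 0.05 to 0.16.

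Markers of epithelial and other cell types lay on both sides of 0. None passed edgeR's test, and DESeq2 called 4, with PDGFRA higher and MUC1, CD14 and VWF lower. Over all 13311 genes tested, DESeq2 called 541 higher and 755 lower. Among 10 stromal and fibroblast markers 5 were higher and 5 lower, with log2 fold changes of 0.79 for PDGFRA and -0.37 for HOXA11, and their summed level was 2155, 1963 and 1653 FPKM in Control libraries 1 to 3 against 2343, 1833 and 1326 with rhChem157S. Among the 10 epithelial markers 9 were tested, 5 of them higher and 4 lower (EPCAM -1.46, MUC1 -0.57), and their sum, which consists mostly of keratins, was 1690, 1515 and 1784 against 1977, 1811 and 2087. Of 9 endothelial and leukocyte markers 6 were tested, and CD14 was at 49.7, 39 and 35.3 in Control against 21.2, 15.6 and 7.39 with rhChem157S (-1.49) and VWF at 0.49, 0.383 and 0.336 in Control against 0.189, 0.0738 and 0.0439 with rhChem157S (-1.97). PTPRC and PECAM1 were at or near 0 throughout. The part of these differences in the levels of the mitotic genes was not tested.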

How the data were processed

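RNA of 12Z cells was sequenced from 3 Control and 3 rhChem157S cultures. The authors filtered reads with fastp, aligned them to GRCh38.p13 with HISAT2 and obtained read counts per gene with HTSeq-count. The deposited count table holds raw counts, and the deposited FPKM are the authors' values scaled for gene length and library total. Versions of these tools, the annotation and the strand setting are not given in the sources used here. In 13615 of 13615 genes with 10 or more counts in 2 or more libraries, the FPKM matched the count over 1 gene length and the library total within 1%, so the FPKM carry no composition scaling.

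Counts were fitted in R 4.3.3 with edgeR 4.0.16 (filterByExpr, TMM, quasi-likelihood test, Benjamini-Hochberg over 13311 genes). Levels are FPKM multiplied by the total and divided by the TMM effective library size, and log2 CPM use a prior count of 2. The alternatives tried were limma 3.58.1 on log2 FPKM with 1 or 0.1 added, DESeq2 1.42.0, other scalings and filters, edgeR with legacy=FALSE, a replicate block, and leaving out each library. An exact permutation test of 3 against 3 libraries cannot go below p = 0.10, so none is given. One count is 0.0261 to 0.0282 CPM. The members and lists were chosen with earlier results of these data known. Named are all 42 members and, of each other list, the 2 genes with the smallest p, other genes being markers or chosen after their values were seen. Gene positions are those of GENCODE release 29 (GRCh38), in which 12 of the 42 genes share exon bases with the opposite strand.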

Additional observations from a re-analysis of the deposited data

How the results depend on the processing

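The members' median log2 fold change of 0.31 was 0.19 with library size alone, 0.18 with limma on log2(FPKM + 1) or log2(FPKM + 0.1) and 0.23 with the abundance trend removed. With one library left out it ran from 0.28 to 0.39 in edgeR, and from 0.28 to 0.39 in DESeq2, an alternative chosen after seeing the data. Members lower with rhChem157S numbered 6 with library size alone and 8 with either limma fit, and 0 to 4 with one library left out in edgeR or DESeq2. Members with groups apart numbered 17 in the same 3 alternatives and 27 to 38 with one library left out. Members with an adjusted p under 0.05 numbered 20 with DESeq2 and 0 to 11 with one library left out of edgeR. With one library left out DESeq2 called 16, 5 and 7 members (Control 1 to 3) and 18, 13 and 31 (rhChem157S 1 to 3), among 672, 297, 515, 2651, 571 and 1737 genes called in all, against 20 members among 1319 with all 6 libraries. The cause of these differences was not tested. Over the 42 genes and the alternatives with all or 5 of the libraries, 565 kept direction and side of the threshold, 37 gained a call and 28 changed sign, all in 8 genes near 0. With library size alone the reversed values were CENPA -0.02, PBK -0.09, PRC1 -0.06, PTTG1 -0.08 and TOP2A -0.01. With limma on log2(FPKM + 1) they were CDC25C -0.00, CENPA -0.02, NUSAP1 -0.02, PBK -0.11, PRC1 -0.07, PTTG1 -0.09 and TOP2A -0.02. With limma on log2(FPKM + 0.1) they were CDC25C -0.01, CENPA -0.03, NUSAP1 -0.02, PBK -0.12, PRC1 -0.07, PTTG1 -0.09 and TOP2A -0.02. With one library left out CDC25B ran from -0.13 to 0.10 (0.10, 0.02 and 0.05 without Control 1, rhChem157S 2 and rhChem157S 3), PBK from -0.07 to 0.19 (-0.07 and -0.05 without rhChem157S 1 and 2), PRC1 from -0.02 to 0.15 (-0.02 without rhChem157S 1) and PTTG1 from -0.01 to 0.13 (-0.01 without Control 2, rhChem157S 1 or rhChem157S 2). With the replicate block, 0 of the 42 members and 1 of all genes tested had an adjusted p under 0.05, with a median of 0.32, 1 member lower and 28 with groups apart. Same-numbered libraries deviated together in pairs 1 and 3 but not in pair 2 (correlations across genes 0.241, 0.00147 and 0.247). Libraries of unlike number gave -0.306 to 0.106. Whether same-numbered libraries share a batch is not given in the sources used here and cannot be told from these values. The main fit did not pair them. Each member had at least 604 counts in each library.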
